A study of Mus musculus with 12 samples.

Results

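Potassium channel genes are described here in cortical neuronal cultures of the mouse under lasting exposure to interferon-gamma. Potassium channels let potassium leave or enter a cell and so set its resting potential, the shape and spacing of its action potentials and, in astrocytes, the removal of potassium from around active neurons. Voltage-gated channels open on depolarisation. Their pore-forming subunits are of the Kcna, Kcnb, Kcnc, Kcnd, Kcnf, Kcng, Kcnh, Kcnq, Kcns and Kcnv families. Some of these, such as Kcnf1, are silent subunits that form no channel alone. Auxiliary subunits of the Kcnab, Kcne and Kcnip families change the gating and traffic of voltage-gated channels. Inward rectifiers (Kcnj) and two-pore channels (Kcnk) carry current near rest, and the Kcnma, Kcnn and Kcnt channels open with calcium or sodium inside the cell.

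The members were the rows of the count table whose Ensembl identifiers carry a GENCODE symbol of the Kcn family, with antisense, opposite-strand and pseudogene names left out, and with at least 10 counts in at least 6 of the 12 columns. Of 43629 rows, 94 had such a name, 71 met the count rule and 23 did not. Of the 71, 62 had at least 10 counts in all 12 columns, and 0 met the rule through the columns of 1 group alone. There were 35 voltage-gated pore-forming subunits, 9 auxiliary subunits, 10 inward rectifiers, 8 two-pore channels, 7 calcium-activated channels with their beta subunits and 2 sodium-activated channels. All 71 also passed the filter on low counts of the test. Just inside the count rule were Kcnj14 with 6 such columns, Kcnrg with 7 and Kcnh8 with 9. Just outside was Kcnj13 with 5 such columns, all of them IFNG, and 11 counts over the Control libraries against 96 over the IFNG libraries. Kcng4 and Kcnn4 followed with 2 columns each.

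The study has 12 libraries, 6 labelled IFNG and 6 labelled Control, from cultures of mouse cortex; strain, age and sex are not stated in the labels. In the IFNG cultures a lentivirus carrying an Ifng expression construct, the gene of interferon-gamma, was added at 7 days in vitro, and RNA was taken 10 days later and enriched for poly(A). All samples carry the same protocol text, so it is not stated whether Control cultures were given a virus of their own, or which promoter drives Ifng. The labels do not state whether libraries of 1 group are separate cultures or separate animals, and the p-values therefore reflect the spread among the libraries alone, whether biological or technical. Control libraries held 14408343 to 20299507 counts and IFNG libraries 13875435 to 34239380. Ifng itself was at 0 to 0.169 CPM (counts scaled to a common library size) in Control and 4.98 to 17.8 CPM in IFNG libraries, and no library went against its label. CPM values use library totals scaled for composition, and levels are compared between genes only per kilobase of exon (CPM per kb).

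These are cultures of more than 1 cell type. Of 12 astrocyte markers 10 were tested and all 10 rose (median log2 fold change 1.23), with S100b and Gjb6 at no more than 1.37 and 0.339 CPM. Their summed level was 2355 to 2592 CPM in Control and 4310 to 7389 CPM in IFNG libraries. Of 8 general neuronal markers 4 fell (Rbfox3, Snap25, Stmn2 and Elavl3) and 0 rose (median -0.29), and their sum went from 4823 to 5466 CPM in Control to 3480 to 4651 CPM in IFNG. Of 8 microglial markers 3 were tested and 1, P2ry12, rose, and the sum was 8.56 to 15.7 CPM against 13.7 to 21.9 CPM. Of 6 excitatory neuron markers 2 fell and 0 rose, and of 3 mural markers tested 1, Pdgfrb, rose. Tmem119 was at 0 in all Control libraries and the endothelial marker Cldn5 at 0 in all 12. In such bulk samples, fewer cells of a type and less RNA per cell cannot be told apart.

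Control 3 and IFNG 5 stood apart within their groups. Control 3 was the highest of the 12 in 21 of the 71 members, against 0 to 9 members for each other library. IFNG 5 was the lowest of the 12 in 26 of the 71 members, against 2 to 7 members for each other library. Its median difference from the Control mean, on the log2(CPM + 1) scale, was -0.48 over the 35 members with merged exons above 4780 bases and -0.06 over the others. Over all tested genes longer than that the same median was -0.19 in IFNG 5, and 0.15 over the shorter ones. Counts are therefore also given without IFNG 5 and, for falls, without Control 3. The part of the length pattern of IFNG 5 in the results was not tested.

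The sequences just upstream of the members with the largest rises come first, since the GAS element is the main site through which interferon-gamma acts, and interferon-induced factors act at the ISRE. Windows from 250 bases before to 50 bases after each RefSeq start (GRCm38.p6) matched 50 of the 71 members, in 73 windows of 32851. The GAS motif searched was TTCNNNGAA and the ISRE core was GAAA, any 2 bases and GAAA, both on both strands; a stretch can match both. GAS was in 8.3% of all windows and in 8 member windows, which belong to 8 members. The ISRE core was in 3.44% of all windows and in 6 member windows, which belong to only 4 members. Windows of the same member are not independent. The windows of Kcne1l and Kcnj10, the members that rose most, hold neither motif and have a GC content of 69.7% and 63.7%.
Kcne1l, chrX:142306149-142306448, minus strand: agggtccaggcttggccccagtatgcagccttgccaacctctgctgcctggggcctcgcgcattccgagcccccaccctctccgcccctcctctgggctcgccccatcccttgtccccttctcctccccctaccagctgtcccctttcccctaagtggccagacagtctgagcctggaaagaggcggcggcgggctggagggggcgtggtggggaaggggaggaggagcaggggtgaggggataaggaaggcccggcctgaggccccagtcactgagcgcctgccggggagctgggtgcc
Kcnj10, chr1:172340960-172341259, plus strand: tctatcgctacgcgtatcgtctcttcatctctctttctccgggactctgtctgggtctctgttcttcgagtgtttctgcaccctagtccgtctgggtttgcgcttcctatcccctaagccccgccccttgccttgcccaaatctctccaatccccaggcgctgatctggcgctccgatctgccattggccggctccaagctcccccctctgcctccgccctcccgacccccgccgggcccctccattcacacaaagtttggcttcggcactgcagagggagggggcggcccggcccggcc

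Among the members that passed the test and had a window, each motif was found in 1, and both of those members fell. They are shown with the motif in capitals: GAS in a window of Kcnip1, its first base at -198 from the start, and the ISRE core on the reverse strand in the window of Kcnd2, its first base at +28. The other windows of Kcnip1 hold neither motif. A match is a description of these letters and not a bound site, and a window without one says nothing of the factors.
Kcnip1, chr11:33680633-33680932, minus strand: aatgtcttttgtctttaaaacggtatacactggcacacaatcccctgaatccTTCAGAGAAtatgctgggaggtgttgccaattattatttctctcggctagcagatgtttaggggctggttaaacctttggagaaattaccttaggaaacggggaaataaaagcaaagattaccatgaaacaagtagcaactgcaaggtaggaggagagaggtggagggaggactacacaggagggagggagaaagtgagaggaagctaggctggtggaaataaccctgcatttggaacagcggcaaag
Kcnd2, chr6:21215096-21215395, plus strand: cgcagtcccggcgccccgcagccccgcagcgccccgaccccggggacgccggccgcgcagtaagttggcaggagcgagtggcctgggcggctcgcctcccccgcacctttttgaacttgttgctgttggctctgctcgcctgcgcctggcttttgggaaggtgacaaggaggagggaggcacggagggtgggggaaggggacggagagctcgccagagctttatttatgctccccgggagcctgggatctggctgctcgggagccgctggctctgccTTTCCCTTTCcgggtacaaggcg

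Among the 71 members, 4 rose and 13 fell at an adjusted p below 0.05. Kcne1l and Kcnj10 rose most, Kcnk2 and Kcnk10 rose by less, and the falls ran from the little-expressed Kcnk13 to several of the most abundant voltage-gated subunits. Fold changes and adjusted p-values come from the quasi-likelihood test of edgeR, adjusted by Benjamini-Hochberg across the 15241 genes tested. Of those genes 14.3% rose and 9.79% fell, 24.1% in all. The members' own shares were 5.63% higher and 18.3% lower, 23.9% in all. So the share called in either direction was near that of all genes, with fewer rises and more falls. The log2 fold change was below 0 in 55 of the 71 members (77.5%), against 52.0% of all tested genes, and its median was -0.24 against -0.02. The IFNG libraries lay wholly above the Control libraries in 2 members (8.75% of all genes) and wholly below them in 4 (4.09% of all genes).

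Summed over the 71 members, the level was 578.4 to 651.9 CPM per kb in Control and 548.8 to 603.5 in IFNG libraries, and these ranges overlap. Counted on library totals that leave out the risen genes, which moves the median of all genes from -0.02 to 0.10, 4 members rose and 6 fell. On totals with no composition factor 3 rose and 17 fell. Without IFNG 5, 4 rose and 9 fell, and without Control 2, Control 3 or IFNG 2 the falls numbered 8, 7 and 7.

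**Figure D1:**
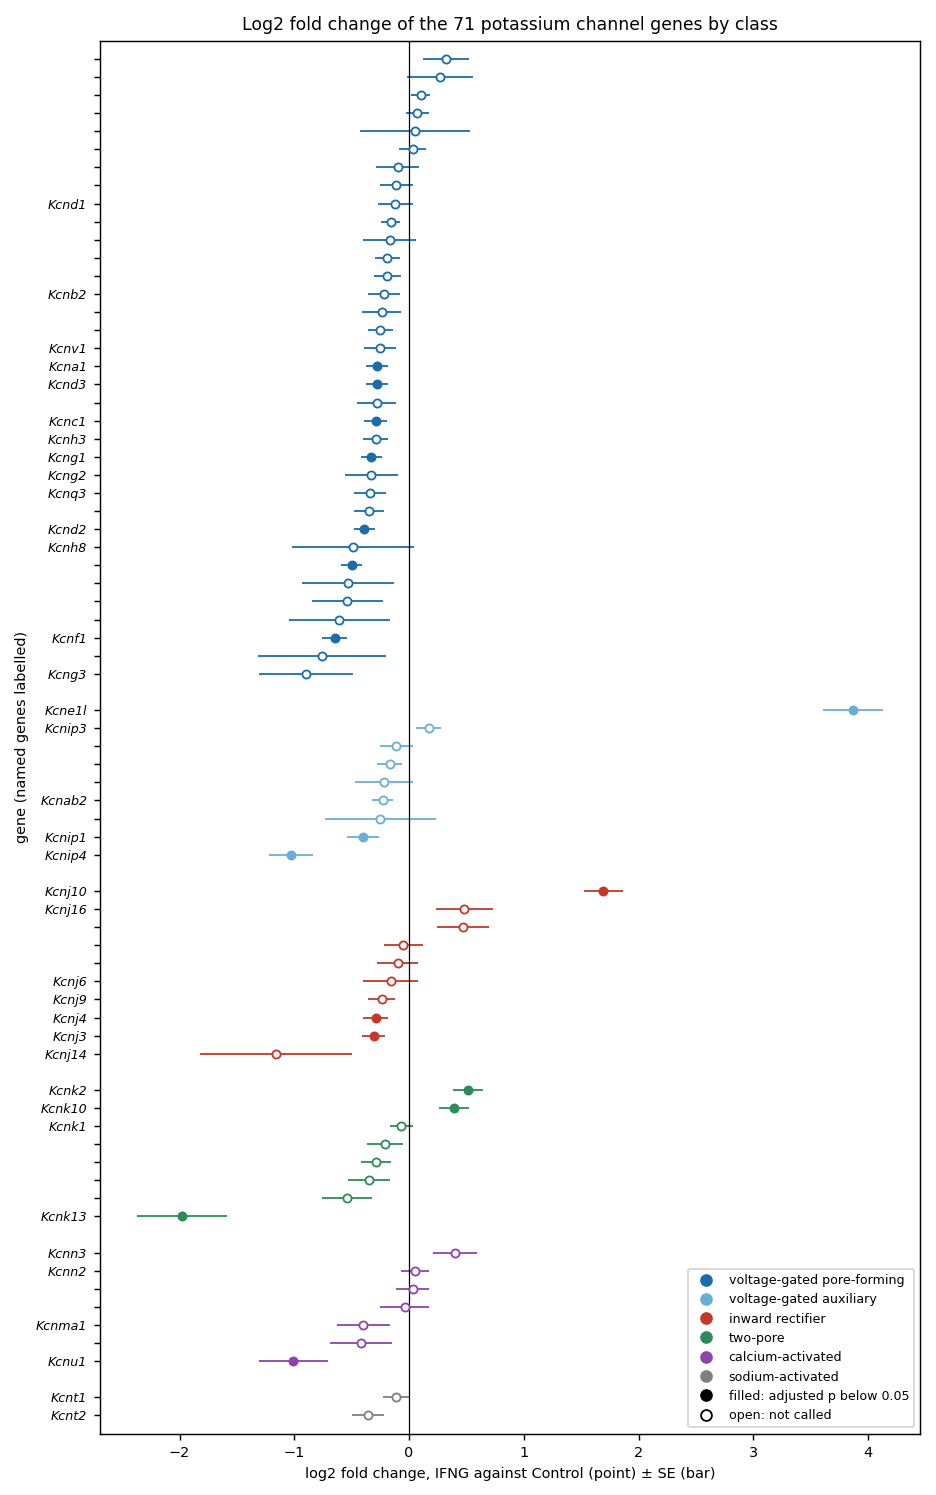
Log2 fold change of IFNG over Control with its standard error for each of the 71 potassium channel genes, grouped by class; filled points passed the test at an adjusted p below 0.05, and genes described by name are labelled. Kcne1l at 3.87 and Kcnj10 at 1.69 stand above the rest, and 29 of the 35 voltage-gated pore-forming subunits lie below 0.

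The voltage-gated pore-forming subunits fell where they changed: 7 of 35 fell, 0 rose and 28 did not pass. The median log2 fold change was -0.28. Their share of falls was above the 9.79% of all genes, and their share of rises was below the 14.3%. At an unadjusted p below 0.05 there were 12 of the 35. Summed, they came to 352.3 ± 23.6 CPM per kb in Control and 289.6 ± 20.2 in IFNG (SD, n = 6 each). The sums ran from 311.8 to 382.1 and from 261.1 to 314.4, so the groups overlapped slightly. General neuronal markers fell over the same libraries (median -0.29), and their part in these falls was not tested. Without IFNG 5 the count was 5, without Control 2, Control 3 or IFNG 2 it was 4, and on totals without the risen genes it was 3.

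The clearest fall in this class was that of Kcnf1 (ENSMUSG00000051726, GRCm38 chr12:17172100-17176888, minus strand). It encodes a silent subunit, which forms no channel alone and alters those of the Kcnb family. Its Control libraries ranged from 147.5 to 218.6 CPM with a median of 190.6, and its IFNG libraries from 97.6 to 143.8 CPM with a median of 112.5. The groups did not overlap, and the log2 fold change was -0.65 ± 0.11 (SE, adjusted p = 0.00021). By exon length it was the second most abundant member in Control, at 38.7 ± 5.96 CPM per kb, and stood at 24.7 ± 3.48 CPM per kb in IFNG (SD, n = 6 each). Its partner Kcnb2, which carries the delayed rectifier current of cell bodies and was looked at for that role, did not pass (-0.22 ± 0.14).

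Kcng1 (chr2:168260117-168281736, minus strand), another silent subunit and the third most abundant member, ranged from 133.1 to 166.2 CPM with a median of 147.1 in Control. In IFNG it ranged from 102.9 to 135.0 CPM with a median of 115.8, so a single narrow stretch was shared. Its log2 fold change was -0.33 ± 0.091 (SE, adjusted p = 0.0116), and on totals without the risen genes the call was lost. Kcnv1, a silent subunit as well and seventh in abundance, went from 22.9 ± 3.26 to 19.2 ± 4.77 CPM per kb (SD, n = 6 each) and did not pass (adjusted p = 0.209). The related Kcng2, Kcng3 and the 3 Kcns members did not pass.

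The Kcnc genes encode channels that open and close fast enough for high firing rates, as in fast-spiking interneurons. All 4 members had a log2 fold change below 0 and 2 fell. Kcnc1 (chr7:46396497-46438704, plus strand) ranged from 87.6 to 131.0 CPM with a median of 111.2 in Control and from 76.2 to 103.2 CPM with a median of 92.9 in IFNG. Its groups overlapped, and the fall of 0.29 ± 0.10 on the log2 scale was close to the threshold (adjusted p = 0.0475). It missed the threshold in 10 of the 12 fits that leave out a library, all but those without Control 4 or IFNG 6. Of the 8 markers of inhibitory interneurons 7 were tested, of which Gad1, Vip and Calb2 fell and Sst rose. Their sum was 407.2 to 675.3 CPM in Control and 388.2 to 521.9 CPM in IFNG, Pvalb stayed at or below 2.19 CPM in every library, and their part in the Kcnc falls was not tested. Summed, the Kcnc members went from 53.1 ± 3.78 to 43.8 ± 1.87 CPM per kb (SD, n = 6 each).

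The Kcnd genes encode the A-type channels of dendrites, which open below firing threshold and inactivate quickly. Kcnd2 (chr6:21215503-21729805, plus strand), whose window with the ISRE core is printed above, ranged from 65.3 to 90.3 CPM with a median of 80.2 in Control. In IFNG libraries it ranged from 53.3 to 65.6 CPM with a median of 60.5. The ranges overlapped at a single Control library, and the log2 fold change was -0.39 ± 0.093 (SE, adjusted p = 0.0045). Kcnd3 (chr3:105452330-105674002, plus strand) went from 113.8 to 147.9 CPM with a median of 132.9 to 92.5 to 123.0 CPM with a median of 108.5. These ranges overlapped, and its log2 fold change was -0.28 ± 0.095 (SE, adjusted p = 0.0352). It missed the threshold without Control 1, 2 or 3 or IFNG 2, 3, 4, 5 or 6. Kcnd3 overlaps the antisense gene Kcnd3os, and the labels do not say whether the counting used strand. Kcnd1 did not pass (-0.12 ± 0.15).

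Kcna1 (chr6:126640397-126646384, minus strand), which encodes a low-threshold channel of axons, was narrow in Control, from 102.1 to 115.5 CPM with a median of 106.9. In IFNG it ranged from 67.4 to 98.3 CPM with a median of 91.8, lowest in IFNG 5. The groups did not overlap, and the log2 fold change was -0.28 ± 0.094 (SE, adjusted p = 0.0327). The adjusted p rose above 0.05 without Control 2, 3, 5 or 6 or IFNG 1, 2 or 5. The other 5 Kcna members did not pass, and 3 of the 6 had a log2 fold change above 0.

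Kcnh3, the most abundant member of the class per kb that did not pass, encodes a channel of the ether-a-go-go kind found in forebrain neurons. It ranged from 127.8 to 161.6 CPM with a median of 140.7 in Control and from 98.4 to 153.0 CPM with a median of 111.6 in IFNG. Its log2 fold change was -0.29 ± 0.11 (SE), which just missed the threshold at an adjusted p of 0.0509. With IFNG 5 left out it was -0.37 with an adjusted p of 0.00309, and it also passed in DESeq2 (0.0348) and in limma-voom (0.0413). Of the 8 Kcnh members 0 passed, with 2 at an unadjusted p below 0.05, and their sum was 42.0 to 47.3 CPM per kb in Control and 33.5 to 39.3 CPM per kb in IFNG libraries, which do not overlap. Kcnq3 encodes a subunit of the M channel, which holds neurons back from repeated firing, and is named for that role. It did not pass, at -0.34 ± 0.14 (SE, adjusted p = 0.0843), and the 4 Kcnq members summed to 60.9 ± 6.33 CPM per kb in Control and 52.0 ± 8.31 in IFNG (SD, n = 6 each), with overlap.

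**Figure D2:**
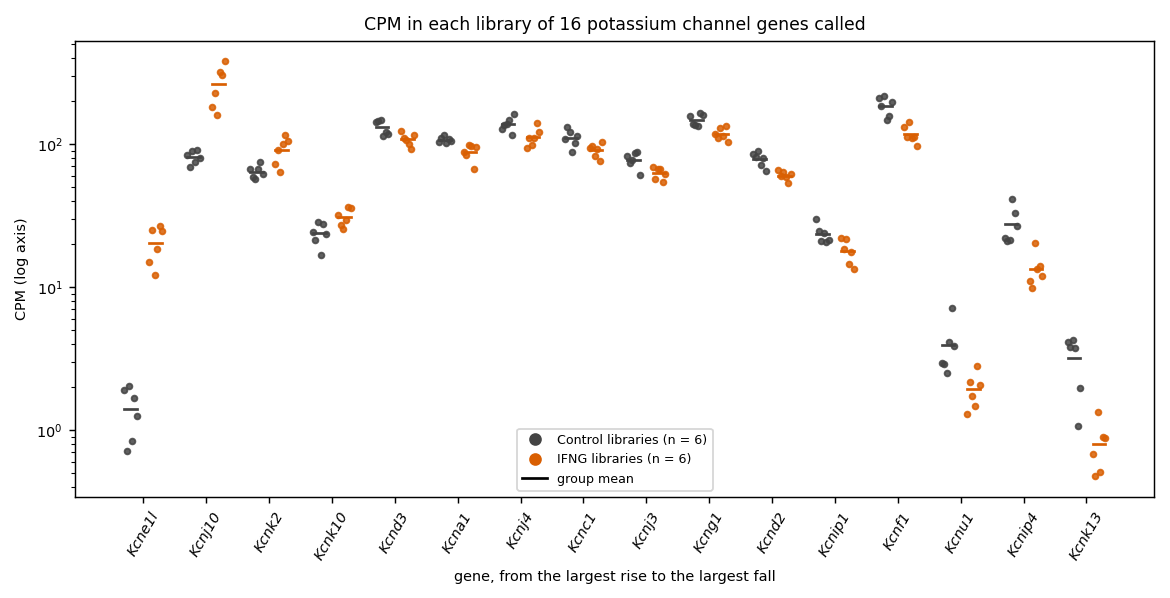
CPM in each of the 6 Control and 6 IFNG libraries, on a log axis, for 16 of the 17 potassium channel genes that passed the test; short lines are group means. Kcne1l and Kcnj10 are above every Control library in every IFNG library, and Kcnip4, Kcnf1 and Kcna1 are below them in every one.

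Among auxiliary subunits 1 of 9 rose (11.1%, against 14.3% of all genes), 2 fell (22.2%, against 9.79%) and 6 did not pass (median -0.22). The rise was that of Kcne1l (ENSMUSG00000090122, GRCm38 chrX:142304752-142306294, minus strand), also called Kcne5. It encodes a small subunit with a single membrane span that damps currents of the Kcnq family and others when expressed with them. Its Control libraries lay between 0.71 and 2.04 CPM with a median of 1.48, and its IFNG libraries between 12.2 and 26.8 CPM with a median of 21.7. Every IFNG library was far above every Control library, and the log2 fold change of 3.87 ± 0.26 (SE, adjusted p = 5.15e-10) was a 14.6-fold difference. The counts behind it were 150 over the Control and 2672 over the IFNG libraries. Per kb it went from rank 63 of the 71 members in Control, at 0.913 ± 0.361 CPM per kb, to 13.2 ± 3.89 CPM per kb (SD, n = 6 each). Its neighbours on chromosome X, Acsl4 and Nxt2, looked at for their position, did not pass, at -0.11 ± 0.12 (adjusted p = 0.576) and 0.29 ± 0.13 (adjusted p = 0.112). The other Kcne genes with a row, Kcne1 to Kcne4, were under the count rule, and so was Kcnq1, with 11 counts over Control and 22 over IFNG libraries.

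Kcnip4 (ENSMUSG00000029088, chr5:48389502-49524907, minus strand) encodes a calcium-binding subunit of Kcnd channels that slows their inactivation. It ranged from 20.9 to 41.4 CPM with a median of 24.5 in Control and from 9.92 to 20.4 CPM with a median of 12.7 in IFNG. The groups did not overlap, the highest IFNG library being just under the lowest Control library, and the log2 fold change was -1.03 ± 0.19 (SE, adjusted p = 0.000393). Kcnip4 shares a stretch with 5730480H06Rik on the other strand, which did not pass (-0.07). Kcnip1 (chr11:33629339-33993152, minus strand), a subunit of the same channels known from interneurons, went from 20.7 to 30.2 CPM with a median of 22.8 to 13.5 to 22.1 CPM with a median of 18.0. Its groups overlapped, and the log2 fold change of -0.40 ± 0.14 (SE, adjusted p = 0.0444) missed the threshold without Control 1, 2, 3, 4 or 6 or IFNG 2, 4, 5 or 6.

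Kcnip3, a calcium-binding subunit that also acts as a transcriptional repressor and the second most abundant of the class per kb in Control, did not pass. It stood at 43.1 to 67.5 CPM in Control and 50.3 to 72.1 CPM in IFNG (0.17 ± 0.11, SE, adjusted p = 0.301). The level of Kcnip4 per kb was 0.387 to 0.763 of that of Kcnip3 in Control and 0.18 to 0.338 in IFNG libraries, ranges that do not overlap. The 4 Kcnip members summed and set over the 3 Kcnd members summed came to 1.05 ± 0.234 in Control and 1.16 ± 0.167 in IFNG (SD, n = 6 each), within the spread. Kcnab2, a cytoplasmic subunit of Kcna channels with the fold of an oxidoreductase and the most abundant auxiliary member, did not pass (-0.23 ± 0.093, SE, adjusted p = 0.0778).

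**Figure D3:**
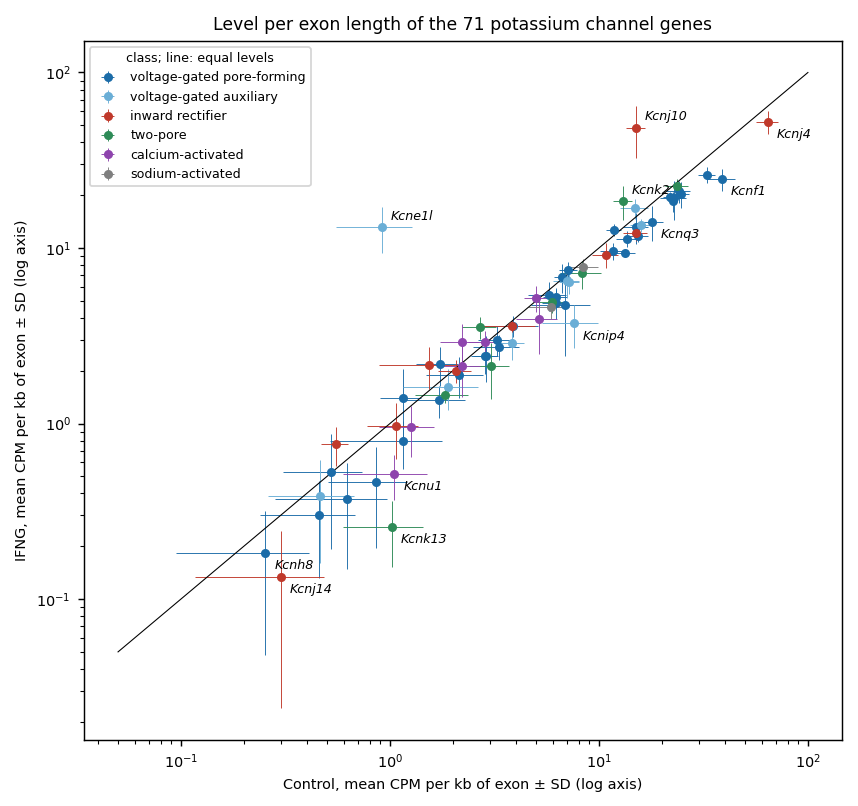
Mean level in IFNG against mean level in Control, in CPM per kb of exon on log axes with SD over 6 libraries each, for the 71 members; the diagonal marks equal levels. Kcnj4 is the most abundant in Control at 64.2, and Kcne1l goes from 0.913 to 13.2.

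Among the inward rectifiers 1 of 10 rose, 2 fell and 7 did not pass (median -0.13). The share that rose was below the 14.3% of all genes, and the share that fell was above the 9.79%. Kcnj10 (ENSMUSG00000044708, GRCm38 chr1:172341210-172374085, plus strand) encodes the channel with which astrocytes and oligodendrocytes take up potassium. Its Control libraries ranged from 68.9 to 90.6 CPM with a median of 82.0 and its IFNG libraries from 161.3 to 379.0 CPM with a median of 267.0. The groups lay well apart, with a wide spread in IFNG where IFNG 3 was lowest and IFNG 6 highest, and the log2 fold change was 1.69 ± 0.17 (SE, adjusted p = 1.9e-07). In CPM per kb it went from 15.0 ± 1.54 to 48.6 ± 15.9 (SD, n = 6 each), next to Kcnj4 at 52.4 ± 7.95 in IFNG. The 10 tested astrocyte markers rose with it, by 0.41 (Aqp4) to 1.73 (Aldoc) on the log2 scale. As a share of the summed astrocyte markers, Kcnj10 was 2.93 to 3.51% in Control and 3.64 to 5.13% in IFNG libraries. These ranges do not overlap, but IFNG 1, 2 and 3 were just above Control, at 3.64, 3.72 and 3.74%. Aldoc, Gfap and Slc1a3 had log2 fold changes like that of Kcnj10, at 1.73, 1.68 and 1.65, and the other tested astrocyte markers rose by less. Of the oligodendrocyte markers 7 of 8 were tested, and 2 fell (Olig2 and Pdgfra) and 0 rose, with a sum of 171.1 to 251.4 CPM in Control and 149.1 to 172.6 CPM in IFNG. What part the astrocyte markers have in the rise was not tested. Kcnj16, which joins Kcnj10 in mixed channels and is named for that, did not pass (0.48 ± 0.25, SE, adjusted p = 0.177). Per kb, Kcnj10 was 6.01 to 19.0 times the level of Kcnj16 in Control and 10.3 to 35.9 times in IFNG, with overlap.

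Kcnj4 and Kcnj3 are neuronal. Kcnj4 (chr15:79483714-79505241, minus strand) encodes a strong inward rectifier of forebrain neurons and was the most abundant member in both groups, at 64.2 ± 7.46 and 52.4 ± 7.95 CPM per kb (SD, n = 6 each). It ranged from 116.0 to 162.4 CPM with a median of 136.9 in Control and from 93.6 to 140.9 CPM with a median of 110.1 in IFNG. The groups overlapped widely, and the fall of 0.29 ± 0.11 on the log2 scale was at the threshold (adjusted p = 0.0491). It missed the threshold in all fits that leave out a library except those without Control 5 or IFNG 5.

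Kcnj3 (chr2:55435970-55598145, plus strand) encodes a subunit of the channels that neurotransmitter receptors open through G proteins. It ranged from 60.9 to 87.6 CPM with a median of 79.9 in Control and from 54.4 to 69.5 CPM with a median of 64.6 in IFNG. Control 6 was the single Control library within the IFNG range, and the log2 fold change was -0.31 ± 0.10 (SE, adjusted p = 0.0299). The call was lost without Control 1, 3, 4 or 5 or IFNG 2, 5 or 6. Its partner subunit Kcnj9 did not pass (-0.24 ± 0.12, SE, adjusted p = 0.148), nor did Kcnj6, named for the same role (-0.16 ± 0.24). On totals without the risen genes, neither Kcnj3 nor Kcnj4 passed.

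Of the 8 two-pore channels 2 rose (25.0%, against 14.3% of all genes), 1 fell (12.5%, against 9.79%) and 5 did not pass (median -0.25). Kcnk2 and Kcnk10, which rose, encode the closely related TREK channels, opened by membrane stretch and lipids and found in neurons and astrocytes. Kcnk2 (chr1:189207930-189402273, minus strand) ranged from 57.1 to 75.3 CPM with a median of 64.1 in Control and from 64.3 to 115.9 CPM with a median of 95.8 in IFNG. IFNG 1 and IFNG 3 lay within the Control range and the other 4 above it, and the log2 fold change was 0.51 ± 0.13 (SE, adjusted p = 0.00565). Kcnk10 (chr12:98429437-98578310, minus strand) ranged from 16.8 to 28.8 CPM with a median of 24.0 in Control and from 25.6 to 36.4 CPM with a median of 30.7 in IFNG. The overlap was small, but the log2 fold change of 0.39 ± 0.13 (SE, adjusted p = 0.0404) missed the threshold without Control 1, 2, 4 or 6 or IFNG 1, 4, 5 or 6, and on totals with no composition factor. Astrocyte markers rose in the same libraries, and their part was not tested. Kcnk2 overlaps a processed pseudogene on its strand and an antisense gene, neither of which passed.

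Kcnk13 (ENSMUSG00000045404, chr12:99964499-100062682, plus strand) encodes THIK-1, a channel known from microglia. Its Control libraries ranged from 1.07 to 4.29 CPM with a median of 3.8 and its IFNG libraries from 0.477 to 1.35 CPM with a median of 0.78. Control 5 lay within the IFNG range and the other 5 Control libraries above it, and the log2 fold change was -1.98 ± 0.39 (SE, adjusted p = 0.000775). The summed microglial markers, 8.56 to 15.7 CPM in Control and 13.7 to 21.9 CPM in IFNG, did not fall with it. Kcnk1, the most abundant two-pore channel, was at 39.8 to 58.8 CPM in Control and 44.2 to 57.7 CPM in IFNG (-0.07 ± 0.10, SE, adjusted p = 0.658), and its sign changed on totals without the risen genes. The class sum was 59.7 ± 4.56 and 60.5 ± 4.41 CPM per kb (SD, n = 6 each), within the spread.

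Of the 7 calcium-activated members 1 fell (14.3%, against 9.79% of all genes) and 6 did not pass (median -0.04). Kcnu1 (chr8:25849623-25937939, plus strand), a relative of Kcnma1 that is opened by alkaline pH and known from sperm, ranged from 2.52 to 7.17 CPM with a median of 3.41 in Control. In IFNG libraries it ranged from 1.29 to 2.83 CPM with a median of 1.89. The overlap was slight, and the log2 fold change of -1.01 ± 0.30 (SE, adjusted p = 0.0167) became -0.74 with an adjusted p of 0.0625 without Control 5, its highest library. Kcnma1, the large-conductance channel that ends action potentials, had the highest level per kb of this class in Control, followed by Kcnn2. It ranged from 54.6 to 109.9 CPM in Control and from 22.7 to 87.4 CPM in IFNG, lowest in IFNG 5, and did not pass (-0.40 ± 0.23, SE, adjusted p = 0.226).

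Kcnn2, the small-conductance channel of the slow pause after firing, was at 29.4 to 42.6 CPM in Control and 31.3 to 49.1 CPM in IFNG (0.05 ± 0.12, SE, adjusted p = 0.798). Kcnn3, of the same family and named because 1 library decides its call, did not pass with all libraries (0.40 ± 0.19, SE, adjusted p = 0.135) and passed without IFNG 5 (0.54, adjusted p = 0.0121). The sodium-activated Kcnt1 and Kcnt2, which carry a slow outward current after bursts, did not pass. Kcnt1 was at 61.1 to 97.1 CPM in Control and 65.2 to 88.4 CPM in IFNG (-0.11 ± 0.12, SE, adjusted p = 0.538). Kcnt2 was at 34.1 to 54.4 CPM in Control and 26.9 to 36.3 CPM in IFNG (-0.36 ± 0.14, SE, adjusted p = 0.0592), and passed on totals with no composition factor (adjusted p = 0.0305) and without Control 1 (adjusted p = 0.046).

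**Figure D4:**
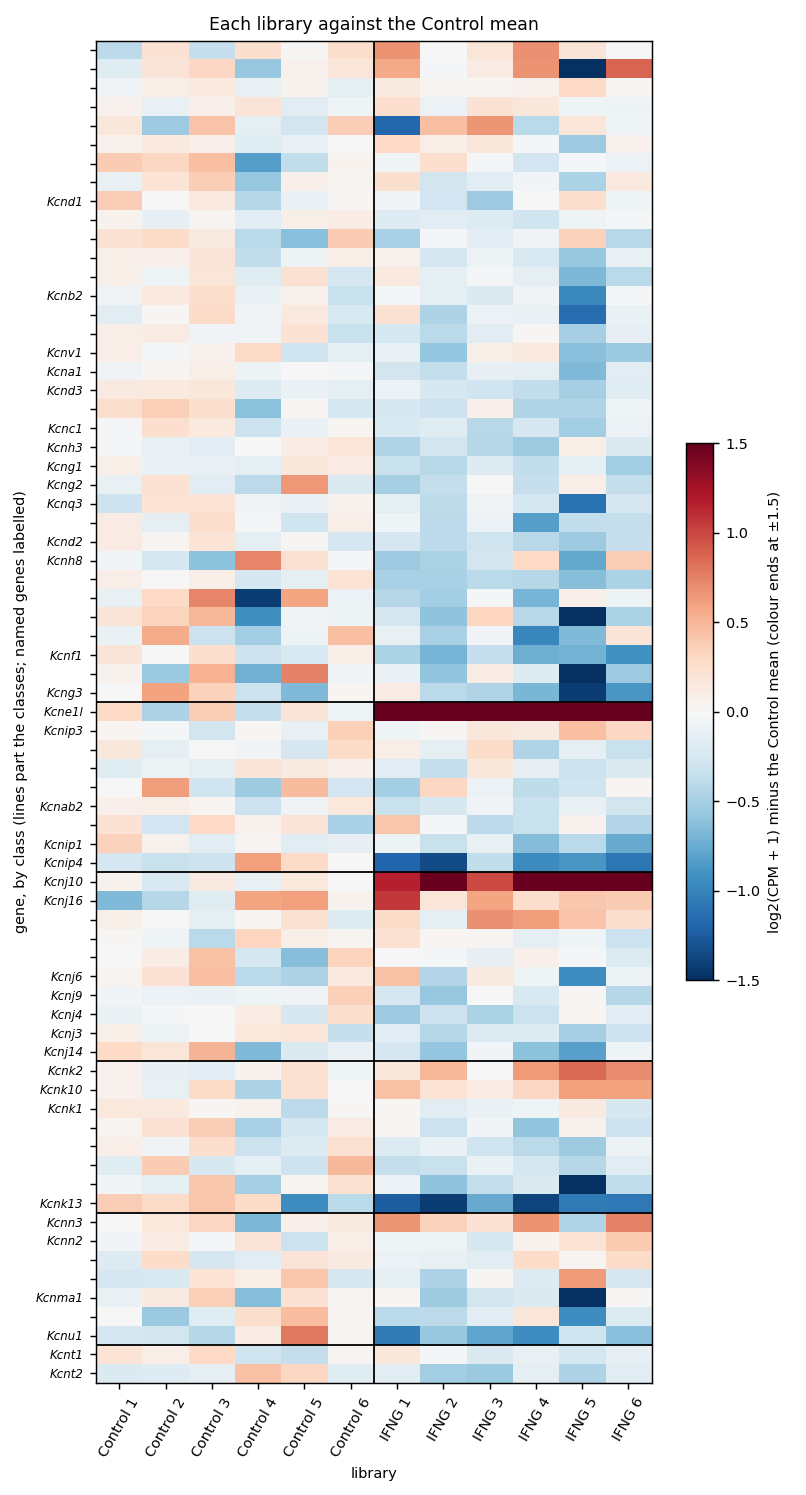
Difference of each library's log2(CPM + 1) from the Control mean for each member, grouped by class with genes described by name labelled, with colours ending at ±1.5. The median over the members lies between -0.37 and -0.09 in the IFNG libraries and between -0.13 and 0.14 in Control, with IFNG 5 lowest.

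The median difference of the 71 members from the Control mean was below 0 in each IFNG library, from -0.09 in IFNG 1 and IFNG 3 to -0.37 in IFNG 5, on the log2(CPM + 1) scale. Control libraries ran from -0.13 in Control 4 to 0.14 in Control 3, so IFNG 1 and IFNG 3 were within the Control range. Those libraries also had the lowest astrocyte sums of the IFNG group, 5013 and 4310 CPM, and IFNG 5 had the lowest neuronal sum, 3480 CPM. Map2, a marker in the neuronal sum, was at 780.8 CPM in IFNG 5 and at 1341.3 to 1475.4 CPM in the other IFNG libraries. The part of the length pattern of IFNG 5 in its neuronal sum was not tested. IFNG 6 had the highest astrocyte sum, 7389 CPM, with a member median of -0.15, against -0.29 in IFNG 2 at 6109 CPM. The part of culture make-up in the order of the medians was not tested. Of the 17 called members 9 passed in every fit that left out a library, among them Kcne1l, Kcnj10, Kcnk2, Kcnk13, Kcnip4, Kcnf1, Kcnd2 and Kcng1.

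Genes that work with these channels were counted from lists of partners. Their counts stand beside the 14.3% of all tested genes that rose and the 9.79% that fell. Over the 3 lists 36 genes were tested, of which 7 rose and 6 fell, and with so few genes a list the counts describe single genes and set no list apart from all genes. Among 16 auxiliary and scaffolding partners 13 were tested, with 1 rise and 1 fall (median -0.20). Cntn2, which helps to gather Kcna channels beside nodes of myelinated axons, had a log2 rise of 0.32 ± 0.11 (SE, adjusted p = 0.033). Adam22, which binds the secreted protein Lgi1, fell by 0.36 ± 0.10 on the log2 scale (SE, adjusted p = 0.0124). The Kcnd partners Dpp6 and Dpp10, looked at for that role, did not pass, at 0.08 and -0.14.

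Of 13 receptors and regulators that act on Kcnj3 to Kcnj9 or Kcnq channels 12 were tested, and 2 rose, a share near that of all genes (14.3%), and 4 fell, against 9.79% of all genes (median -0.15). The adenosine receptor Adora1 was at 121.1 ± 14.3 CPM in Control and at 173.6 ± 11.2 CPM in IFNG (SD, n = 6 each), a rise of 0.52 on the log2 scale with an adjusted p of 0.000205. The muscarinic receptors split: Chrm3 rose by 0.61 ± 0.12 (adjusted p = 0.000962) and Chrm1 changed by -0.37 ± 0.087 (adjusted p = 0.00357). Rgs6, which speeds the closing of G-protein-gated channels, was at 69.2 ± 10.2 CPM in Control and at 38.2 ± 2.97 CPM in IFNG (SD, n = 6 each), a log2 fold change of -0.86 with an adjusted p of 3.6e-06. Its relative Rgs7 fell by 0.41 on the log2 scale (adjusted p = 0.0149), and Kctd16, a subunit of GABA-B receptors, by 0.85 (adjusted p = 0.0122). The GABA-B receptor genes Gabbr1 and Gabbr2, looked at beside it, did not pass (-0.12 and -0.16).

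All 11 pumps and cotransporters of potassium were tested, and 4 rose and 1 fell, the fall near the share of all genes, with a median log2 fold change of 0.05. Slc12a7, a cotransporter that exports potassium with chloride, was at 6.71 to 16.1 CPM in Control and 70.3 to 110.2 CPM in IFNG (2.94 ± 0.17, SE, adjusted p = 4.34e-11). Slc12a4, of the same family, had a log2 rise of 1.09 ± 0.15 (SE, adjusted p = 2e-05). The neuronal Slc12a5 did not pass, at 395.5 to 496.8 CPM in Control and 393.0 to 500.1 CPM in IFNG (-0.06, adjusted p = 0.688). Atp1b2, a beta subunit of the sodium pump, rose by 0.29 ± 0.085 (adjusted p = 0.0162). The list shares 1 gene with the astrocyte markers counted above.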

How the data were processed

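Poly(A) RNA of mouse cortical neuronal cultures was sequenced in 12 libraries. The authors deposited 1 table of whole-number counts for each gene and sample, without normalization. STAR 2.4, DESeq2 and the builds GRCm39 and mm10 are listed, without roles, per the submitters' processing notes. How reads were assigned to genes (counter, strand, annotation) is not given in the sources used here; 16 members overlap a tested gene on the other strand and 2 on their own. GENCODE M21 (GRCm38) gave symbols to 42548 identifiers, coordinates and exon lengths. IFNG was compared with Control with edgeR 4.0.16 under R 4.3.3, using TMM scaling, filterByExpr, two-sided quasi-likelihood F-tests and Benjamini-Hochberg adjustment at 0.05 over 15241 genes. The SE of a log2 fold change is its size over the square root of F. Scripts were tested on simulated data. No 2 libraries of a group agreed within sampling noise (chi-square per gene at least 7.43).

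The members and lists were chosen with earlier results of these data known, and the length split of libraries was added after seeing the data. Named by rule were all members that passed, the 2 most abundant per exon length and the most abundant that did not pass in each class, Kcnt1, Kcnt2, Ifng, and partner genes that passed; results of some of these genes are not reported here but remain in the counts and sums. Others were named for their role or after their values were seen. Alternatives were DESeq2 size factors, totals with no composition factor or without the risen genes, no filter, a filter of 1 CPM in 6 samples, a replicate block, DESeq2 1.42.0, limma-voom (limma 3.58.1), a test against a fold change of 1.2, and leaving out each library.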

Additional observations from a re-analysis of the deposited data

Results flagged for a closer look

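In 3 of 52 groups of 6 values (the 26 members named by rule in each group), 1 library stood apart by Dixon's criterion, which flags about 1 in 20 groups by chance. Kcnj9 in Control 6 was at 59.5 CPM against 42.9 to 44.7 CPM in the other Control libraries. Kcnk1 in Control 5 was at 39.8 CPM against 53.2 to 58.8 CPM in the others. Kcnu1 in Control 5 was at 7.17 CPM against 2.52 to 4.12 CPM in the others, and its call was lost without that library.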

How the results depend on the processing

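Of 546 values of the 26 named members under the alternatives, 444 kept direction and side of the threshold, 89 lost the call, 11 gained it and 2 changed sign: Kcnk1 to 0.04 on totals without the risen genes and Kcnn2 to -0.02 without IFNG 6 (-0.02 to 0.11 without each library in turn). Of the 17 called members, 6 passed in every alternative, among them Kcne1l, Kcnj10, Kcnk13, Kcnip4 and Kcnf1. The cause was not tested for the following shifts, except that a test against a fold of 1.2 is stricter and the 1 CPM filter tests 69 of the 71 members. On totals without the risen genes 750 of all genes fell, against 1492, and 6 members fell, among them 3 pore-forming voltage-gated, 1 auxiliary and 0 Kcnj. With no filter 8 members fell, among them 4 pore-forming voltage-gated, 1 auxiliary, 0 Kcnj and 2 Kcnk. The 1 CPM filter left 1 auxiliary and 1 Kcnj member lower. Without a composition factor 1 Kcnk member rose and 1 Kcnt member fell. Against a fold of 1.2, 458 of all genes and 5 members fell (2 pore-forming voltage-gated, 1 auxiliary, 0 Kcnj), 2 members rose (0 Kcnk) and 2 partner genes fell.

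With the replicate block 12 pore-forming voltage-gated members fell, against 7, and 1 Kcnj member. The numbers are shared between groups in the labels, and the correlations of same-numbered libraries over all tested genes ran from -0.000964 to 0.124. Libraries numbered 2 and 6 correlated best with their own number and the others did not. Control 4 correlated best with IFNG 5, and Control 5 with IFNG 4. Such correlations cannot exclude a batch shared by several numbers, and whether there is one was not tested. Leaving out each library in turn gave 1924 to 2332 rises and 1047 to 1699 falls over all genes. Among the members it gave 3 to 4 rises and 7 to 13 falls: 4 to 7 pore-forming voltage-gated, 1 to 3 auxiliary, 0 to 1 Kcnj, 0 to 1 calcium-activated and 0 to 1 Kcnt lower, 1 to 2 Kcnk and 0 to 1 calcium-activated higher. Partner genes gave 6 to 7 rises and 6 to 8 falls. Members at the lowest depth, such as Kcnj14 with 86 and 42 counts, cannot show modest differences.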

Other observations

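Of the 23 potassium channel genes under the count rule, Kcnj13 showed the widest gap between groups in total counts, 11 over Control against 96 over IFNG libraries, and was not tested. It was at 0 to 0.451 CPM in Control and 0.136 to 1.66 CPM in IFNG, with overlap. Kcnk5 had 17 and 54 counts, and its level reached 1.37 CPM in IFNG 2, against at most 0.339 CPM in the other libraries. Kcnmb1 had 0 counts in all 12 libraries. These genes were chosen after their values were seen.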
